A study of Mus musculus with 44 samples.

Results

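Counts of 5 mature mouse miRNAs, listed together as miRNAs of neuropeptide circuits, are described in 44 small-RNA libraries of hypothalamus. Their link to neuropeptide neurons was not tested. In the table they are mmu-miR-383-5p, mmu-miR-384-5p, mmu-miR-384-3p, mmu-miR-488-3p and mmu-miR-873a-5p, written without the species prefix below. They were chosen by name, as neuronal miRNAs tied to energy balance, and are 5 of the 1978 mature miRNAs in the table, 1546 of which had at least 1 count. The study asked how an oligonucleotide against miR-132, given to obese mice, alters small RNAs, and compared it with a control oligonucleotide and with lean mice. The AM132 group (16 libraries) came from C57Bl/6J mice made obese by 11 weeks of high-fat diet and injected intravenously with an oligonucleotide of 16 nt complementary to miR-132 and protected by locked nucleic acid (LNA). The AM608 group (16 libraries) came from mice fed and injected in the same way, but with an LNA oligonucleotide of 15 nt against miR-608, a primate miRNA. Each animal of these groups received 3.3 mg/kg on 3 days, and its tissue was collected 7 days later. The RCD group (12 libraries) came from age-matched lean C57Bl/6J mice on regular chow. No injection is described for them in the labels, so an effect of obesity and one of injection cannot be told apart where RCD is the reference. LNA protection slows the breakdown of an oligonucleotide, and the labels do not say whether an injected one reached the hypothalamus.

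A miRNA is cut from a hairpin precursor, whose 5p and 3p arms can each yield a mature strand. The mature strand guides Argonaute to mRNAs that pair with its seed, bases 2 to 8 from its 5′ end, and lowers the output of those mRNAs. In the arcuate nucleus of the hypothalamus, neurons that express Pomc, the precursor of the satiety peptide α-MSH, act against neurons that express Agrp and Npy, which promote feeding. miR-383, miR-384-3p and miR-488 have been studied as regulators of Pomc mRNA downstream of leptin, and miR-384-5p has been studied in synaptic plasticity.

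The sequences of 4 of the 5 miRNAs matched entries of RefSeq on GRCm38.p6. They are shown with the seed in capitals, because the seed decides which of them could share targets. miR-30a-5p is added since its seed equals that of miR-384-5p, and miR-873a-3p as the other arm of the miR-873a hairpin.
miR-384-5p: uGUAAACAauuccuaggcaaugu
miR-384-3p: aUUCCUAGaaauuguucacaau
miR-488-3p: uUGAAAGGcuguuucuugguc
miR-873a-5p: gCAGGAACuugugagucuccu
miR-873a-3p: gAGACUGAcaaguucccggga
miR-30a-5p: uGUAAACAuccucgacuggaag

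The 4 seeds differ from each other, so those strands form no family by sequence. Among the mature mouse miRNAs of that table, the seed of miR-384-5p, GUAAACA, also begins miR-30a-5p, miR-30c-5p and miR-30e-5p. The other counted members of the miR-30 family, miR-30b-5p and miR-30d-5p, had no entry there, so their seeds were not compared. The seed of miR-873a-5p, CAGGAAC, occurs in 1 other entry, miR-6370, and those of miR-384-3p and miR-488-3p occur in 0 others. Both arms of miR-384 and both arms of miR-873a were counted in depth, and their hairpins are given with the mature arms in capitals, the 5p arm first.
Mir384: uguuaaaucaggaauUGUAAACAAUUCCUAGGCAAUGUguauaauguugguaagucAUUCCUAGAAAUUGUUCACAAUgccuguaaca
Mir873a: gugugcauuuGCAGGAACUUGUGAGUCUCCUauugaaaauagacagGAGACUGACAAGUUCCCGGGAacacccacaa

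The 4 genes lie on 4 chromosomes of GRCm38. Mir384 is at chrX:105344282-105344369 on the minus strand, outside any annotated host gene. Mir383, at chr8:38252133-38252202, lies in an intron of Sgcz on the same strand. Mir488, at chr1:158505625-158505733, lies in an intron of Astn1, which encodes a neuronal adhesion protein, on the same strand, and an antisense transcript, Gm37679, covers it on the other strand. Mir873a, at chr4:36668510-36668586, lies in an intron of Lingo2 on the same strand, as does Mir876 at chr4:36645373-36645453. Mir873b covers the same interval as Mir873a on the other strand.

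Each library held 3020192 to 5997234 miRNA counts. The labels name 4 batches and do not say what a batch shared. Only batch 2 covered all groups, with 4 RCD libraries (RCD 9 to 12) beside 8 of AM132 and 8 of AM608. Batches 1 and 3 consisted of 4 libraries of either obese group, and the remaining 8 RCD libraries formed batch 4. The labelled tissue is brain, and the neuron marker list (8 miRNAs, none at 0) summed to 117680 to 405140 CPM (counts scaled to a shared library total) in the 44 libraries. miR-132-3p, the miRNA targeted in AM132, was below the AM608 mean of its batch in 15 of 16 AM132 libraries, with a log2 fold change of -0.46 ± 0.16 (SE; edgeR adjusted p = 0.593). Libraries AM132 6 and AM608 5 held 22722 and 21110 CPM of the pituitary list (10 miRNAs), against at most 2167 and 1194 in the other libraries of their group and batch, and AM132 5 was next with 2167. AM132 6 also held 3136 CPM of the muscle list (3 miRNAs), against at most 487. In AM132 6, miR-488-3p was at 415 CPM (514 to 624 in the other 7 libraries of its group and batch), miR-873a-5p at 277 (309 to 371) and miR-383-5p at 1544 (1641 to 1737). In AM608 5, miR-383-5p was at 1416 (1587 to 1870). Leaving out these 3 libraries changed no call for the 5 miRNAs. The labels do not say that each library came from a different animal, so p-values measure the spread between these libraries. In bulk tissue, fewer cells of a type and less RNA per cell cannot be told apart.

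All 5 miRNAs were among the better-counted miRNAs of the hypothalamus and together made up 0.402% of all counts. CPM values use library totals scaled by the trimmed mean of M-values (TMM). Mature miRNAs are of nearly equal length, so the CPM of different miRNAs were compared without a correction for length. Ligation can favour some sequences, so the order of different miRNAs is one of counts and need not be that of their amounts. miR-383-5p ranked 73rd of 1546, with 797, 1553 and 1971 CPM as the lowest, median and highest of the 44 libraries. miR-384-3p ranked 87th, with 705, 1002 and 1409 CPM. In 43 of 44 libraries miR-383-5p exceeded miR-384-3p, by a mean log2 difference of 0.48 ± 0.24 (SD, n = 44). miR-488-3p ranked 119th, with 415, 587 and 872 CPM. miR-384-5p ranked 122nd, with 379, 571 and 775 CPM. miR-873a-5p was the least abundant of the 5, ranked 156th, with 194, 305 and 386 CPM, and was below miR-384-5p in 44 of 44 libraries.

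The middle of this order depended on the batch. Over 44 libraries the log2 difference between miR-488-3p and miR-384-5p was 0.10 ± 0.47 (SD), a spread that includes opposite orders in different batches. Its group means ran from 0.25 to 0.64 in batches 1, 3 and 4 and from -0.39 to -0.29 in batch 2. In batches 1, 3 and 4, miR-488-3p was the higher of the pair in every library. In batch 2 it was the lower in 4 of 4 RCD and 8 of 8 AM608 libraries, and the higher in 1 of 8 AM132 libraries. miR-384-3p exceeded miR-488-3p in 40 of 44 libraries, and its mean log2 difference within AM608 ran from 1.28 ± 0.14 (SD, n = 8) in batch 2 to 0.11 ± 0.27 (SD, n = 4) in batch 1. An order within a library does not depend on how the library is scaled.

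**Figure D1:**
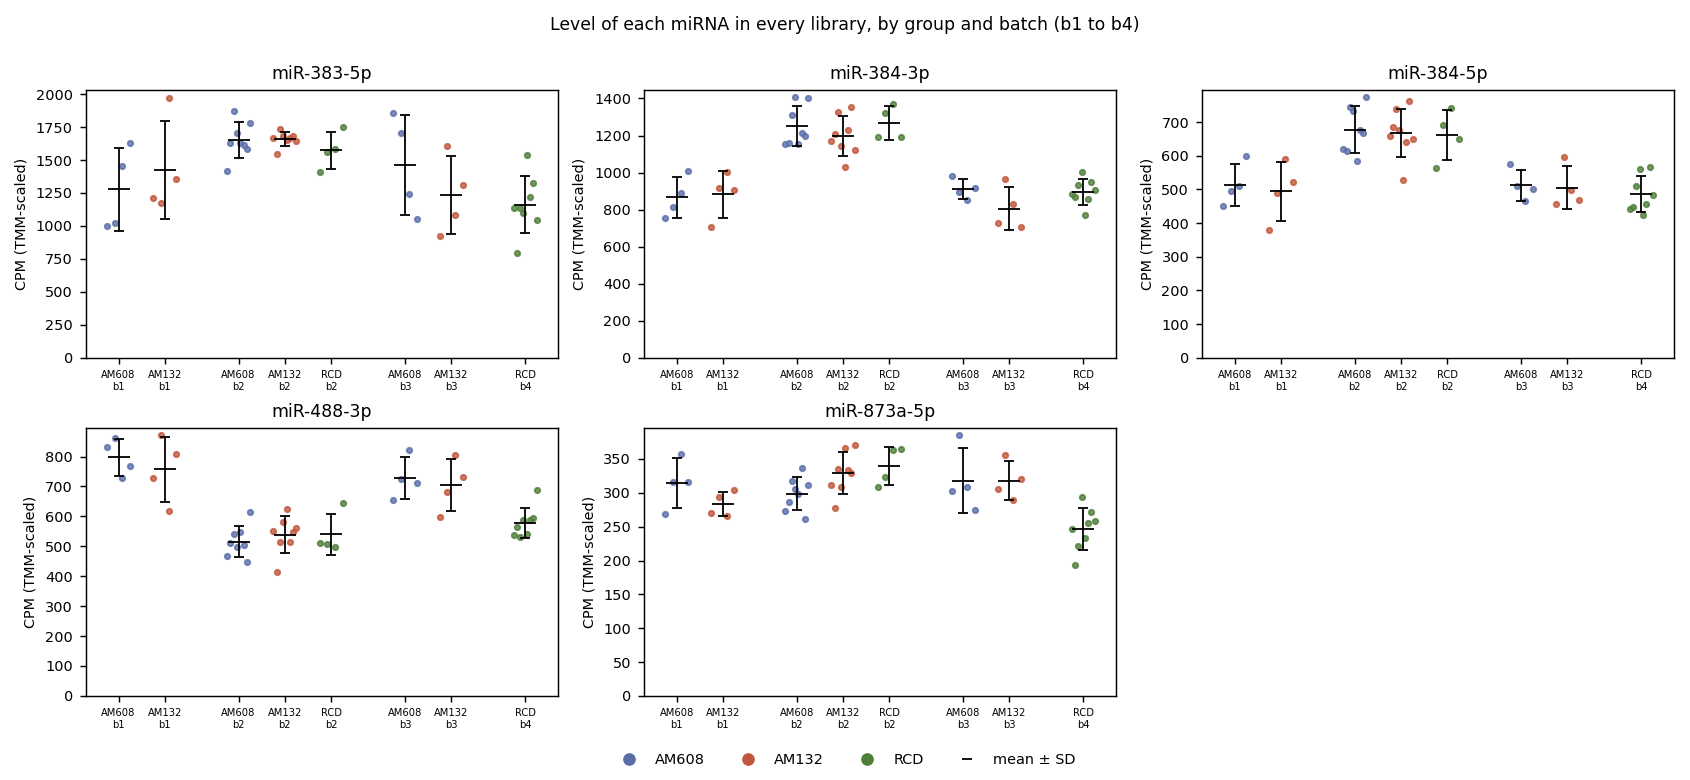
Level of each of the 5 miRNAs in TMM-scaled CPM (y axis, starting at 0) in each of 44 libraries (points), by group and batch, with the mean and SD of each group. For miR-384-3p the 20 libraries of batch 2 sit at 1028 to 1409, above all others, while their ranges meet those of other batches for miR-384-5p and miR-488-3p, and AM132, AM608 and RCD overlap within batch 2 for all 5.

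None of the 5 miRNAs passed the test between AM132 and AM608, the comparison of the targeted with the control oligonucleotide. In edgeR's quasi-likelihood test with batch as a term, 0 of the 5 passed an adjusted p of 0.05 (Benjamini-Hochberg), where 2 of all 559 miRNAs tested, 0.358%, passed (0.179% higher and 0.179% lower), and 0 of the 5 had an unadjusted p below it. In each of the 3 batches the 2 groups' ranges overlapped for all 5. The median log2 fold change was -0.02 over the 5 and 0.00 over all 559.

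miR-383-5p read 927, 1624 and 1971 CPM (lowest, median, highest) in AM132 and 998, 1618 and 1870 in AM608. Its log2 fold change was -0.02 ± 0.08 (SE; adjusted p = 0.99), and the 95% interval of the change ran from -12.3% to 11.2%. Of the 16 AM132 libraries, 7 lay on the side of the estimate. miR-384-3p, the more abundant arm of its hairpin, read 705, 1015 and 1355 CPM in AM132 and 753, 1080 and 1409 in AM608. Its log2 fold change was -0.07 ± 0.05 (SE; adjusted p = 0.955), with an interval from -10.9% to 2.44%. This was the largest estimate of the 5, and 10 of 16 AM132 libraries lay below their batch's AM608 mean. miR-384-5p read 379, 593 and 763 CPM in AM132 and 452, 592 and 775 in AM608, a log2 fold change of -0.03 ± 0.05 (SE; adjusted p = 0.983; interval -9.13% to 5.83%). miR-488-3p ran from 415 to 872 CPM in AM132 (mean 635 ± 126, SD) and from 446 to 862 in AM608 (mean 639 ± 141, SD), a log2 fold change of 0.00 ± 0.06 (SE; adjusted p = 0.995; interval -7.56% to 8.78%). miR-873a-5p read 266, 310.1 and 371 CPM in AM132 and 262, 307 and 386 in AM608, a log2 fold change of 0.03 ± 0.05 (SE; adjusted p = 0.983; interval -5.11% to 10.3%). All 5 intervals included 0, and the widest was that of miR-383-5p.

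Within single batches the estimates scattered around 0. For miR-383-5p, batches 1, 2 and 3 gave 0.20 ± 0.21, 0.00 ± 0.04 and -0.25 ± 0.22 (log2 ± SE). The 4 AM132 libraries of batch 1 read 1211, 1171, 1971 and 1356 CPM and the 4 AM608 libraries 998, 1024, 1453 and 1631. In batch 3 the values were 927, 1607, 1082 and 1312 CPM in AM132 and 1856, 1701, 1241 and 1051 in AM608. The ranges of the groups thus overlapped in both batches, with the highest library in AM132 in batch 1 and in AM608 in batch 3. miR-873a-5p had the estimate farthest from 0 in relation to its error in batch 2, at 0.13 ± 0.06 (SE; edgeR adjusted p = 0.679). A test of whether the effect of AM132 differed between batches passed for 0 of 559 miRNAs, with edgeR adjusted p-values of 0.926 to 0.994 for the 5.

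Against lean mice, which could be compared only within batch 2, again none of the 5 passed. Of 599 miRNAs tested by edgeR, 0 (0%) passed between AM608 and RCD, with 30 at an unadjusted p below 0.05 and 0 by DESeq2. Between AM132 and RCD 0 (0%) passed, with 59 at an unadjusted p below 0.05 and 0 by DESeq2. Both comparisons share the same 4 RCD libraries, and both use libraries of the comparison above. For each of the 5 miRNAs the obese and lean ranges overlapped.

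miR-383-5p read 1406, 1561, 1581 and 1748 CPM in RCD libraries 9 to 12. In AM608 of the same batch it read 1416, 1626 and 1870 CPM (lowest, median, highest) and in AM132 1544, 1666 and 1737. In each obese group 7 of 8 libraries were above the RCD mean. The log2 fold change was 0.11 ± 0.06 (SE) in both, with edgeR adjusted p = 0.799 for AM608 and 0.497 for AM132. miR-873a-5p read 308, 323, 363 and 365 CPM in RCD. In AM608 it read 262, 302 and 337 CPM, and in AM132 277, 331 and 371. All 8 AM608 libraries were below the RCD mean, but their highest values passed the lowest RCD values. The log2 fold change was -0.14 ± 0.08 (SE; edgeR adjusted p = 0.799) for AM608 and -0.01 ± 0.08 (SE; adjusted p = 0.982) for AM132. The unadjusted p of 0.0698 for miR-383-5p and 0.0806 for miR-873a-5p in AM608 were the smallest of the 5 there.

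The other 3 miRNAs did not pass in either comparison. miR-384-3p read 1192, 1321, 1368 and 1190 CPM in RCD, 1152, 1205 and 1409 in AM608 and 1028, 1190 and 1355 in AM132, with log2 fold changes of 0.02 ± 0.07 and -0.05 ± 0.07 (SE). miR-384-5p read 563, 691, 741 and 650.3 CPM in RCD, 585, 673 and 775 in AM608 and 527, 667 and 763 in AM132, with log2 fold changes of 0.08 ± 0.09 and 0.05 ± 0.09 (SE). miR-488-3p read 512, 507, 498 and 643 CPM in RCD, 446, 507 and 615 in AM608 and 415, 550.4 and 624 in AM132, with log2 fold changes of -0.03 ± 0.09 and 0.03 ± 0.09 (SE). Library RCD 12 was above the other 3 RCD libraries and all 16 obese libraries of batch 2 for miR-488-3p. With 4 lean libraries, the 95% interval for miR-488-3p in AM608 against RCD ran from -14.4% to 12.4%.

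**Figure D2:**
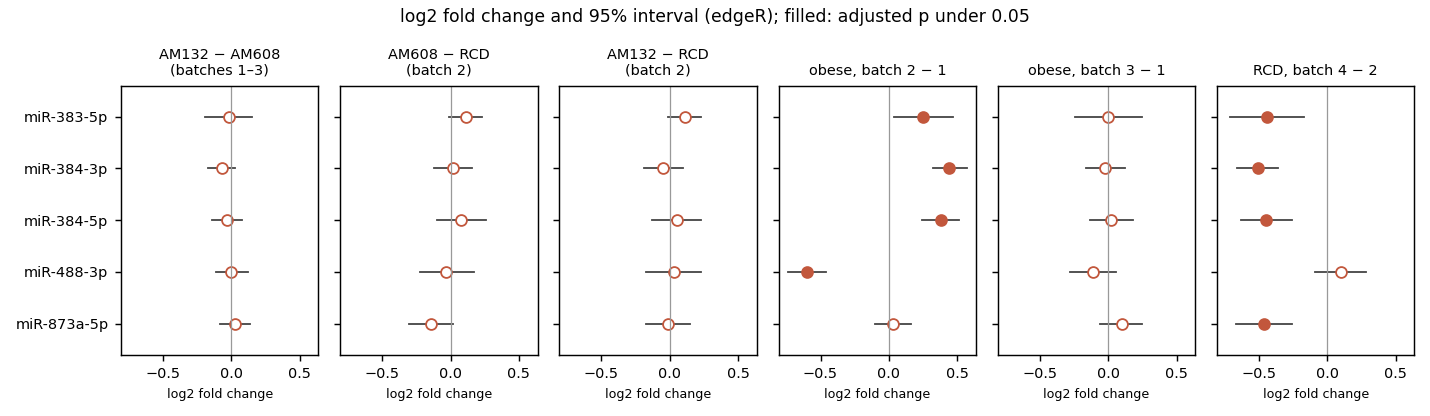
log2 fold change of each of the 5 miRNAs (points) with its 95% interval (lines) in 3 group comparisons and 3 batch comparisons, on a shared x axis; filled points passed an adjusted p of 0.05 in edgeR. All 15 points of the group comparisons are open, and 4 of 5 points are filled in obese batch 2 against batch 1 (all but miR-873a-5p) and in RCD batch 4 against batch 2 (all but miR-488-3p).

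Relatives of the 5 miRNAs and other miRNAs of feeding circuits did not pass between groups either. The 11 relatives were the other arms, the neighbour miR-876, miR-873b from the strand opposite Mir873a, and the miR-30 family. Of these, 7 could be tested and 0 passed in any of the 3 group comparisons. Their median log2 fold changes were 0.01, -0.02 and 0.01, against 0.00, 0.00 and 0.01 over all miRNAs tested. miR-30d-5p in AM132 against RCD had the smallest p of these, at 0.16 ± 0.06 (SE; adjusted p = 0.488). The 4 not tested were nearly uncounted over the 44 libraries, with 120 counts for miR-383-3p, 159 for miR-876-5p, 2 for miR-876-3p and 0 for miR-873b. miR-488-5p had 646 counts against 111410 for miR-488-3p, so miR-383 and miR-488 were each counted almost wholly from 1 arm.

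A list of 13 other miRNAs studied in energy balance had 0 calls in each group comparison, among 12 tested for AM132 against AM608 and 13 against RCD. Its median log2 fold changes were 0.06, 0.12 and 0.13, against 0.00, 0.00 and 0.01 over all. In AM132 against AM608 the smallest p-values were those of miR-132-3p, the target of the AM132 oligonucleotide, and of miR-200b-3p. The latter, which is on the pituitary list too, was at 1.33 ± 0.80 (SE, edgeR adjusted p = 0.939). In AM608 against RCD the smallest p-values were those of miR-103-3p, at -0.15 ± 0.05 (SE, edgeR adjusted p = 0.78), and miR-342-3p, at -0.14 ± 0.08 (SE, edgeR adjusted p = 0.799). In AM132 against RCD they were those of miR-132-3p, at -0.80 ± 0.29 (SE), and miR-200b-3p, at 4.23 ± 1.94 (SE), both with an adjusted p of 0.488. Like miR-200b-3p, miR-141-3p, miR-200a-3p, miR-200c-3p and miR-429-3p are on both this list and the pituitary list, which was high in AM132 6 and AM608 5.

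Between batches most of the 5 miRNAs passed the test, and not all in 1 direction. Over the obese libraries, both arms of miR-384 and miR-383-5p were higher in batch 2 than in batch 1, miR-488-3p was lower, and miR-873a-5p did not pass. Thus 4 of 5 passed edgeR's test, where 67.6% of all 559 miRNAs did (34.2% higher and 33.5% lower), a share close to that of the 5. Library composition also differed: the median TMM factor was 0.90, 1.14, 0.86 and 0.91 in batches 1 to 4. Without these factors the median log2 fold change of all miRNAs from batch 1 to 2 was 0.32 instead of -0.01, and 75% of the calls were higher instead of 50.5%. Changes are therefore relative to the bulk of the miRNAs.

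miR-384-3p read 706, 898 and 1008 CPM (lowest, median, highest) in the 8 obese libraries of batch 1 and 1028, 1202 and 1409 in the 16 of batch 2. The ranges did not overlap, and the log2 fold change was 0.44 ± 0.06 (SE; adjusted p = 1.84e-07). miR-384-5p read 379, 502 and 599 CPM and 527, 673 and 775 CPM, with 16 of 16 batch 2 libraries above the batch 1 mean and a log2 fold change of 0.38 ± 0.07 (SE; adjusted p = 1.13e-05). miR-383-5p read 998, 1284 and 1971 CPM and 1416, 1656 and 1870 CPM, a log2 fold change of 0.25 ± 0.10 (SE; adjusted p = 0.0309). Here the batches overlapped widely, since batch 1 held both low and high libraries. miR-488-3p read 617, 787 and 872 CPM in batch 1 and 415, 527 and 624 in batch 2, a log2 fold change of -0.60 ± 0.07 (SE; adjusted p = 4.26e-09). Only the edges of those ranges met. miR-873a-5p read 266, 299 and 358 CPM and 262, 312 and 371 CPM, a log2 fold change of 0.03 ± 0.07 (SE; adjusted p = 0.704). Without TMM factors miR-488-3p was still lower, at -0.26, and miR-383-5p and both arms of miR-384 kept their direction and calls, whereas miR-873a-5p passed, at 0.37 (adjusted p = 4.9e-05).

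Between batch 3 and batch 1, 0 of the 5 passed in edgeR, where 0.358% of all miRNAs did, and their log2 fold changes lay between -0.11 and 0.10. None had an unadjusted p below 0.05, and DESeq2 called 0 of the 5. Against batch 2, where 68.7% of all miRNAs passed (33.8% higher and 34.9% lower), batch 3 had lower miR-383-5p (-0.25 ± 0.10), miR-384-5p (-0.35 ± 0.07) and miR-384-3p (-0.47 ± 0.06) and higher miR-488-3p (0.49 ± 0.07, log2 ± SE). These estimates use the same batch 2 libraries as those against batch 1. Without TMM factors the median of all miRNAs was -0.42 instead of -0.01 and 18.9% instead of 49.2% of calls were higher; miR-488-3p then no longer passed, at 0.09 (adjusted p = 0.251), and miR-873a-5p, at 0.07 ± 0.07 with the factors, turned to -0.34 (adjusted p = 0.000141).

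The lean group was split between batches 2 and 4, which gave a batch comparison in other libraries. Of the 5 miRNAs 4 were lower in batch 4 and 1 did not pass, where 55.4% of all 598 miRNAs passed (26.9% higher and 28.4% lower). miR-384-3p read 769, 895 and 1001 CPM in batch 4, below all 4 batch 2 values given above, a log2 fold change of -0.51 ± 0.07 (SE; edgeR adjusted p = 2.14e-05). miR-384-5p read 425, 470.3 and 566 CPM in batch 4, with 1 batch 2 library, at 563, inside that range, a log2 fold change of -0.45 ± 0.09 (SE; edgeR adjusted p = 0.000502). miR-383-5p read 797, 1135 and 1536 CPM in batch 4, which reached the lowest batch 2 library, a log2 fold change of -0.44 ± 0.13 (SE; edgeR adjusted p = 0.00835). Unlike in the obese libraries of batches 1 to 3, miR-873a-5p passed here. It read 194, 251 and 294 CPM in batch 4, all below the lowest batch 2 value of 308, a log2 fold change of -0.46 ± 0.10 (SE; edgeR adjusted p = 0.00089). miR-488-3p read 531, 575 and 688 CPM, a log2 fold change of 0.10 ± 0.09 (SE; edgeR adjusted p = 0.37). Without TMM factors, where the median of all miRNAs was -0.35 instead of -0.02 and 17.9% instead of 48.6% of calls were higher, miR-488-3p turned to -0.24 (adjusted p = 0.0169) and the other 4 stayed lower. Whether these contrasts differed from those in obese mice was not tested, as batch 4 held lean mice only.

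Markers of neurons and oligodendrocytes moved with the same batches, and other marker lists did so in part. In obese libraries 7 of the 8 neuron markers were lower in batch 2 than in batch 1, and their summed level was 276025 to 376773 CPM in batch 1, 117680 to 163831 in batch 2 and 315244 to 405140 in batch 3. In RCD it was 124450 to 146557 CPM in batch 2 and 309333 to 393282 in batch 4, with 7 of 8 higher in batch 4. All 3 oligodendrocyte markers were higher in batch 2, with sums of 324 to 1674 CPM in batch 1, 1306 to 2479 in batch 2 and 289 to 902 in batch 3, and of 1829 to 1988 CPM in RCD of batch 2 against 661 to 1146 in batch 4. Of the 6 choroid plexus and ciliated-cell markers 4 were higher in batch 2 than in batch 1, with sums of 1941 to 2524 and 3662 to 4712 CPM. Of the pituitary markers 5 of 9 tested and of the liver markers 2 of 2 were higher in batch 2, and of the muscle markers 0 of 3 passed. The pituitary sums overlapped, with 216 to 471 CPM (median 366) in batch 1 and 269 to 22722 (median 447) in batch 2. The highest of batch 2 were AM132 6 at 22722 and AM608 5 at 21110 CPM. In RCD, edgeR called 2 of 6 choroid plexus and ciliated-cell markers and 4 of 10 pituitary markers lower in batch 4 than in batch 2. It also called 2 of 3 muscle and 1 of 2 liver markers lower there. The choroid plexus and ciliated-cell sums overlapped, with 4072 to 4747 CPM in batch 2 and 1827 to 8520 in batch 4. So did the pituitary sums, with 333 to 607 and 281 to 719 CPM. No marker was at 0 in any of these sets of libraries. Without TMM factors the counts of neuron, oligodendrocyte, choroid plexus and liver markers just given for batch 2 against batch 1 stayed as they were, except that 1 neuron marker was then higher, and 6 instead of 5 pituitary markers were higher; by DESeq2 3 were. The part of these cell types in the batch differences of the 5 miRNAs was not tested.

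The relatives moved between batches as well, with a direction that for part of the miR-30 family depended on scaling. In obese batch 2 against batch 1, 6 of 7 relatives were lower and 1 was higher, whereas without TMM factors 2 were lower and 2 higher (median log2 fold change -0.08 instead of -0.41). miR-30e-5p, for example, had a log2 fold change of -0.49 ± 0.04 (SE; edgeR adjusted p = 1.87e-13) and miR-30a-5p of -0.65 ± 0.06 (SE; edgeR adjusted p = 2.47e-11), while miR-873a-3p was higher at 0.31 ± 0.08 (SE; edgeR adjusted p = 0.000705). Without TMM factors these 3 kept their direction and calls, at -0.16, -0.32 and 0.64, and miR-30d-5p turned from lower to higher, at 0.11 (edgeR adjusted p = 0.00247). In RCD batch 4 against batch 2, all 5 miR-30 members were higher, of which 0 passed without TMM factors, and miR-873a-3p was lower, at -0.83 ± 0.09 (SE; edgeR adjusted p = 1.32e-06), and so too without the factors. A share within a library is free of scaling, and miR-384-5p took a varying share of the 4 strands whose RefSeq entries held GUAAACA. Of the summed counts of miR-384-5p, miR-30a-5p, miR-30c-5p and miR-30e-5p, it made up 1.39%, 2.04% and 3.61% (lowest, median, highest of 44). In batch 2 the group medians were 3.06% in RCD, 3.26% in AM608 and 3.09% in AM132, and in the other batches they were 1.68% to 1.88%. The ranges of batch 2, from 2.63% up, and of the other batches, up to 2.09%, did not overlap. With miR-30b-5p and miR-30d-5p added to the sum, the share was lower, at 0.885%, 1.29% and 2.09%, and the ranges of batch 2, from 1.45% up, and of the other batches, up to 1.31%, again did not overlap. Of the energy-balance list, 6 of 12 were higher and 5 lower in obese batch 2 against batch 1, and 4 of 13 were higher and 4 lower in RCD batch 4 against batch 2. Without TMM factors these counts were 6 and 4, and 1 and 5. With the factors, 67.6% of all 559 miRNAs passed in obese batch 2 against batch 1 (34.2% higher and 33.5% lower). In RCD batch 4 against batch 2, 55.4% of all 598 did (26.9% higher and 28.4% lower). These shares also apply beside the counts of relatives and of cell type markers.

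The ratio of the 2 arms of a hairpin is free of library scaling, though ligation can favour either arm in the counts. For miR-384 the 3p arm was the more abundant in 44 of 44 libraries, by 1.79 times on average, and the log2 ratio of 5p to 3p ran from -1.08 to -0.59. AM132 gave -0.80 ± 0.10 and AM608 -0.84 ± 0.07 (SD, n = 16 each). The 0.04 between them gave a 2-sided p of 0.167 when labels were permuted within batches (adjusted over 3 comparisons 0.212). Within batch 2, AM608 (-0.89 ± 0.06, n = 8) and AM132 (-0.85 ± 0.07, n = 8) differed from RCD (-0.94 ± 0.10, n = 4) by 0.06 and 0.10, with exact permutation p = 0.212 and 0.0707 (both adjusted to 0.212). Groups overlapped in batches 1 and 2. Without RCD 12 the difference between AM132 and RCD was 0.12 (exact permutation p = 0.0424), and without RCD 9, the library with the lowest ratio, it was 0.05 (exact permutation p = 0.267).

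The direction of the miR-384 ratio varied by batch. In batch 3 the AM132 libraries gave -0.67, -0.69, -0.73 and -0.59 and the AM608 libraries -0.77, -0.81, -0.87 and -0.87. The groups were apart there by 0.16 (exact permutation p = 0.0286, the smallest that 70 splits allow; adjusted over 6 within-batch tests of both hairpins 0.0857). In batch 1 the difference was -0.09 (exact permutation p = 0.0857) and in batch 2 it was 0.04 (exact permutation p = 0.239). Whether these differences themselves differ was not tested. The tests within single batches were not among those planned.

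For miR-873a the 5p arm was the more abundant in 44 of 44 libraries, by 1.52 times on average. This ratio was examined after its values were seen. It varied with batch: the obese libraries of batches 1, 2 and 3 gave log2 ratios of 0.66 ± 0.11, 0.38 ± 0.13 and 0.85 ± 0.14 (SD), and RCD gave 0.45 ± 0.06 in batch 2 and 0.82 ± 0.11 in batch 4. The batch 2 means lay lowest in both kinds of mice, and the RCD ranges of 0.36 to 0.51 and 0.68 to 0.98 did not overlap. The obese ranges of batch 1, 0.48 to 0.82, and batch 2, 0.08 to 0.63, did overlap. miR-873a-3p read 203, 244 and 283 CPM (lowest, median, highest) in all 20 libraries of batch 2. In RCD alone it read 225, 254 and 263 CPM in batch 2 and 118, 135 and 159.8 in batch 4.

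Between AM132 and AM608 the miR-873a ratio differed by 0.07 over all batches (permutation within batch, 2-sided p = 0.145, adjusted over 3 comparisons 0.218). Within batch 2, AM132 libraries 5 to 12 gave 0.55, 0.45, 0.45, 0.39, 0.63, 0.35, 0.41 and 0.47, and AM608 libraries 5 to 12 gave 0.33, 0.31, 0.39, 0.31, 0.08, 0.34, 0.24 and 0.45. The groups overlapped, with 5p more dominant in most AM132 libraries, by 0.15 (exact permutation p = 0.00435, adjusted over the 6 within-batch tests 0.0261). Leaving out each of the 16 libraries in turn gave 0.12 to 0.17 (exact permutation p = 0.000932 to 0.00979, adjusted 0.00559 to 0.0587). Adjusted over the 6 tests, the difference passed in 12 of these 16 and did not without AM132 5 (0.0578), AM132 9 (0.0587), AM132 12 (0.0513) or AM608 9 (0.0559). Nor did it pass without the 3 libraries rich in pituitary markers, at 0.15 (exact permutation p = 0.0262, adjusted 0.0857). In batch 1 the difference was -0.04 (exact permutation p = 0.629) and in batch 3 it was -0.00 (exact permutation p = 0.914), and whether the batches differ in it was not tested. Against RCD in batch 2, AM608 differed by -0.14 (exact permutation p = 0.0404, adjusted over 3 comparisons 0.121) and AM132 by 0.01 (exact permutation p = 0.8).

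**Figure D3:**
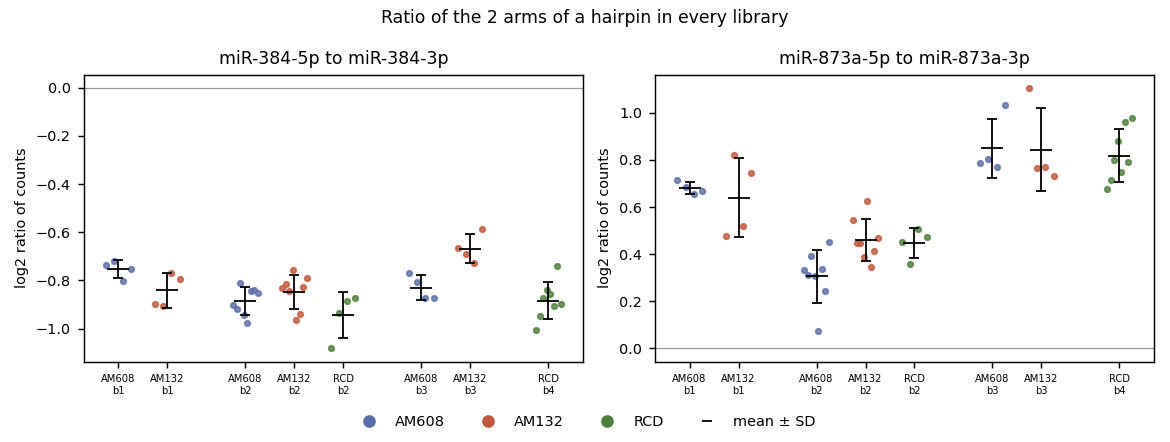
log2 ratio of the 5p to the 3p arm of miR-384 (left) and miR-873a (right) in each of 44 libraries (points; y axis, 0 is equal counts of both arms), by group and batch, with mean and SD. miR-384 lies below 0 and miR-873a above 0 in every library, and the mean miR-873a ratio is lowest in batch 2.

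Libraries of the same group and batch also varied, and the 5 miRNAs did not vary as a block. Within group and batch the SD of log2 CPM was 0.249 for miR-383-5p, 0.169 for miR-384-5p, 0.143 for miR-384-3p, 0.156 for miR-488-3p and 0.15 for miR-873a-5p, where the median of 407 miRNAs with at least 10 CPM was 0.208. miR-383-5p was thus the only 1 of the 5 above that median. Its SD was 0.35, 0.10, 0.36 and 0.27 in batches 1 to 4, where the median miRNA had 0.21, 0.17, 0.21 and 0.20, so it was more variable than the median in batches 1, 3 and 4 and less so in batch 2. After removal of group and batch means, the arms of miR-384 correlated with Pearson r = 0.92 over 44 libraries. miR-383-5p correlated with miR-384-5p at r = 0.50 and with miR-873a-5p at r = 0.45. miR-488-3p correlated with miR-383-5p at r = -0.15, with both arms of miR-384 at r = -0.13 and with miR-873a-5p at r = 0.35. The last was r = 0.25 without the libraries rich in pituitary markers. These r describe libraries that share their total and scaling factor among all miRNAs.

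Likeness in this respect was sought among 402 candidates that left out the 5. The arms of miR-384 (r = 0.92) could therefore not be listed for each other. The miRNAs most like each of the 5 were taken as the 3 of highest r. For miR-383-5p they were miR-700-3p (r = 0.82), miR-344-3p (r = 0.81) and miR-135b-5p (r = 0.79). Those for miR-384-5p were miR-181c-5p (r = 0.92), miR-29c-3p (r = 0.86) and miR-582-5p (r = 0.78). miR-384-3p was most like miR-29b-3p (r = 0.84), miR-29c-3p (r = 0.84) and miR-181c-5p (r = 0.82). The nearest to miR-488-3p were miR-137-5p (r = 0.70), miR-676-3p (r = 0.68) and miR-212-5p (r = 0.67). miR-873a-5p was most like its own other arm, miR-873a-3p (r = 0.76), followed by miR-592-5p (r = 0.67) and miR-130b-5p (r = 0.55). Without the 3 libraries rich in pituitary markers, the first of these remained first for all but miR-488-3p, for which miR-676-3p (r = 0.72) came before miR-137-5p (r = 0.69).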

How the data were processed

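Small RNA of 44 hypothalamus samples was extracted with the miRNeasy kit (integrity number above 8.4), made into libraries from 200 ng with the NEBNext kit and read on a NextSeq 500, per the labels' protocols. The authors deposited raw counts per mature miRNA; FastQC is listed in the submitters' processing notes, and trimming, aligner, miRNA release and build are not given in the sources used here. How reads shared by similar miRNAs were assigned could therefore not be checked, and ligation can favour some sequences, which affects comparisons between miRNAs more than those between groups. The table of tRNA fragments was not used. All 44 columns matched a label, and 0 belonged to other samples.

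The 5 miRNAs and all lists were chosen with earlier results of these data known. In R 4.3.3 with edgeR 4.0.16, filterByExpr removed rarely counted miRNAs (settings 10 for the minimum count and 15 for the total; all 5 passed in every fit). After TMM scaling, the quasi-likelihood F test was applied, and calls were made at a Benjamini-Hochberg adjusted p of 0.05. AM132 against AM608 used 32 libraries with batch as a term, and batch contrasts came from the same fit. RCD was compared within batch 2, in 1 fit of 3 groups over 20 libraries, since elsewhere group and batch coincide. Levels are CPM with TMM over 44 libraries, on the log2 scale with a prior count of 2. Arm ratios are log2 of counts plus 0.5, compared by 2-sided permutation (100000 resamples within batch, or exact within 1 batch). The tests of miR-873a were added after the data were seen. Those of miR-384 between AM132 and AM608 within single batches were not among the planned tests. The fits were tested on simulated data. Named miRNAs were the 5, their relatives with counts, the 2 of smallest p of the energy-balance list per group comparison, and the 3 of highest r per miRNA; other values were named after they were seen.

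Alternatives were RLE scaling, DESeq2 1.42.0, other filters, no batch term, single batches, all 44 libraries, a replicate block and libraries left out. Fits without scaling factors were added after the data were seen. No 2 libraries of a group were duplicates: chi-square divided by its degrees of freedom was 4.55 for the most similar pair. miRNA genes were placed with GENCODE vM21 on GRCm38.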

Additional observations from a re-analysis of the deposited data

Results flagged for a closer look

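Of 56 sets of 4 or 8 libraries (1 group in 1 batch, for 5 levels and 2 arm ratios), 5 held a library far from the others by Dixon's criterion, which flags about 1 in 20 sets by chance. miR-488-3p stood at a log2 CPM of 9.33 in RCD 12 against 8.96 to 9.00 in the other 3 RCD libraries of batch 2. Without RCD 12, the log2 fold change of miR-488-3p in AM608 against RCD was 0.07 instead of -0.03. miR-488-3p was also apart in RCD 8, at 9.43 against 9.05 to 9.21 in the other RCD libraries of batch 4. miR-384-5p was low in AM132 9, at 9.04, where the rest of AM132 in batch 2 lay at 9.33 to 9.58. The log2 ratio of miR-873a-5p to miR-873a-3p was high in batch 3 in AM608 16, at 1.03 against 0.77 to 0.80, and in AM132 13, at 1.11 against 0.73 to 0.77, so 1 library of each group was apart on the same side.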

How the results depend on the processing

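In the 3 group comparisons, 0 of the 5 miRNAs passed in any alternative run. The calls in the batch comparisons held with RLE scaling, DESeq2 and no low-count filter, in the obese libraries also without AM132 5, AM132 6 and AM608 5, and in RCD also with a 10 CPM filter and without each library; those that changed without scaling factors are given in the results and here. The count of miRNAs called between AM132 and AM608, 2 as reported, was 1 without a filter, 0 without a batch term, 0, 1 and 0 in batches 1, 2 and 3 alone, and 1 without AM132 5, AM132 6 and AM608 5. Between AM132 and RCD it was 1 without those libraries instead of 0. For obese batch 3 against batch 1 it was 0 with RLE, 13 with DESeq2, 0 without a filter and 0 without scaling factors, instead of 2.

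Estimates near 0 changed sign without passing. In AM132 against AM608, miR-383-5p was 0.20 and 0.00 in batches 1 and 2, miR-384-3p was 0.06 in batch 1, and miR-873a-5p was -0.11 and -0.00 in batches 1 and 3. There miR-488-3p was -0.01 with a 10 CPM filter, without a batch term or over 44 libraries, -0.03 and -0.05 in batches 1 and 3, and -0.02 without scaling factors. In obese batch 3 against batch 1, miR-383-5p was -0.00 with RLE or DESeq2, -0.01 without a filter and -0.07 without scaling factors, and miR-384-5p was -0.04 without scaling factors. In AM608 against RCD, miR-384-3p was -0.02 without a filter or scaling factors. In AM132 against RCD, without scaling factors miR-384-5p was -0.05 and miR-488-3p -0.06. miR-488-3p was also -0.01 without a filter and -0.02 over 44 libraries, and miR-873a-5p was 0.02 without AM132 5, AM132 6 and AM608 5. Leaving out each RCD library of batch 2 gave, in AM608 against RCD, -0.01 to 0.04 for miR-384-3p and -0.09 to 0.07 for miR-488-3p, and in AM132 against RCD -0.02 to 0.10 for miR-384-5p, -0.02 to 0.12 for miR-488-3p and -0.05 to 0.02 for miR-873a-5p. The largest sign changes that passed were without scaling factors: miR-873a-5p at -0.34 in obese batch 3 against 2 and miR-488-3p at -0.24 in RCD batch 4 against 2. The cause was not tested.

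Same-numbered libraries were not treated as pairs in the main fits and permutations. Of 16 AM132 and AM608 pairs, 13 had residuals correlated above 0.1 (r from -0.46 to 0.72), and 8 correlated best with their own number. The median r was 0.34 for the same number and 0.05 for other numbers. Whether the numbers mark a pairing is not given in the labels and was not tested. With the replicate block, AM132 against AM608 had 2 calls, AM608 against RCD had 0, and AM132 against RCD had 1. With the block, miR-488-3p was -0.00 in AM132 against AM608, miR-384-3p was -0.01 in AM608 against RCD, and miR-384-5p was -0.02 and miR-873a-5p 0.06 in AM132 against RCD.

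For the miR-384 ratio, AM132 minus AM608 was -0.09 in batch 1 and 0.16 in batch 3, and leaving out an RCD library gave 0.05 to 0.12 for AM132 minus RCD. For the miR-873a ratio, AM132 minus AM608 was -0.04, 0.15 and -0.00 in batches 1 to 3 and 0.15 in batch 2 without the 3 libraries, where the adjusted p of 0.0261 became 0.0857. Leaving out an RCD library gave -0.17 to -0.12 for AM608 minus RCD (unadjusted exact permutation p = 0.0364 to 0.121, against 0.0404 with all libraries), and -0.02 to 0.03 for AM132 minus RCD. Of 40 mean levels by group and batch, 23 moved by over 1 SD without scaling factors. Counting depth was not the limit for the 5: the lowest count of any in a library was 749.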
